A study of Saccharomyces cerevisiae with 8 samples.

Results

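Overexpression of PPN2 was compared with its parent strain in Saccharomyces cerevisiae grown at alkaline pH, in 4 of the 8 RNA-seq libraries of the series. The parent, CRN, is MATa ade2 his3 ura3 and lacks PPN1 (ppn1Δ::CgTRP1). The strain CRN/PPN2 is CRN that carries PPN2 on a centromeric URA3 plasmid under the constitutive TDH3 promoter, so it differs from CRN both by the PPN2 insert and by the plasmid marker. The members were chosen by their labels alone: both replicates of each strain in YPD medium with 20 mM KOH. CRN cells were taken after 40 h and CRN/PPN2 cells after 25 h, both at the late logarithmic stage by the paper's account. CRN/PPN2 cells with KOH were lysed at once in Trizol, whereas CRN cells were frozen and broken with a French press. The paper's methods also give a wash in water with sorbitol for CRN/PPN2 cells with KOH, because these cells lysed in distilled water. Strain, harvest time, wash and lysis therefore cannot be told apart in this comparison. The other 4 libraries are the same strains in YPD for 16 h and serve here for the spread between replicates and for one test of difference. Each group has 2 libraries, described as independent biological replicates and handled in 2 batches of preparation and sequencing.

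Inorganic polyphosphate is a chain of phosphate residues that yeast stores mostly in the vacuole. The VTC complex of the vacuolar membrane makes it from ATP while moving it into the vacuole, and polyphosphatases take it apart: PPX1 and PPN1 release phosphate from chain ends, and PPN1 and PPN2 also cut within the chain. The PHO pathway senses phosphate through inositol pyrophosphates and the kinase complex of PHO80 and PHO85, and its transcription factor PHO4 turns on phosphatases, phosphate transporters and the VTC genes when phosphate is scarce. Alkaline medium also removes the proton gradient used by nutrient transporters and makes iron, copper and phosphate hard to take up.

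Promoter stretches of 4 genes are shown because each holds the DNA motif of a regulator whose genes are described below. They run 5′ to 3′ on the gene's strand from 250 to 101 bases before the annotated start, in assembly R64 as given by RefSeq, with the motif on either strand in capitals. HSP12 (chromosome VI, 107006 to 107155, plus strand) and CPP3 (chromosome IV, 521064 to 521213, plus strand) hold the stress element AGGGG of Msn2 and Msn4. VTC4 (chromosome X, 413500 to 413649, minus strand) holds the Pho4 site CACGTG, and RPN2 (chromosome IX, 220801 to 220950, minus strand) holds the proteasome element GGTGGCA of Rpn4.
HSP12: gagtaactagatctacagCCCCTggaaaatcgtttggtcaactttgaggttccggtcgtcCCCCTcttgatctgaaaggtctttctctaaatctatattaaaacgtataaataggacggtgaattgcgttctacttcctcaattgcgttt
CPP3: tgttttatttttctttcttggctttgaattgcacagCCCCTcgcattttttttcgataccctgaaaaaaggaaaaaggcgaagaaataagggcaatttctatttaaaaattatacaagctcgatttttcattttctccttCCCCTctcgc
VTC4: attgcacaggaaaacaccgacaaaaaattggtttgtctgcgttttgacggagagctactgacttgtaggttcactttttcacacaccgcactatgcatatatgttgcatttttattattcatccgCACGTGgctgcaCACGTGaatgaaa
RPN2: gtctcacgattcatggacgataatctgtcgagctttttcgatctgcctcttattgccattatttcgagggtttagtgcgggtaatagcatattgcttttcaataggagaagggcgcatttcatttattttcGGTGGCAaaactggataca

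The libraries held 3844316 and 4791457 counts in CRN and 1559324 and 796548 counts in CRN/PPN2, so 1 count was worth 0.26 and 0.21 CPM (counts scaled to a common library total) in CRN and 0.64 and 1.26 CPM in CRN/PPN2. All levels below are CPM scaled by TMM factors, given for replicate 1 and replicate 2. A gene is said to rise or fall when its level with KOH was higher or lower in CRN/PPN2 than in CRN. No change from YPD is meant by these words. The CRN/PPN2 libraries stood apart from the other 6 in composition. Dubious open reading frames took 0.271% and 0.347% of their counts against 0.19% and 0.185% in CRN, and meiosis and sporulation genes 0.147% and 0.171% against 0.0422% and 0.0407%. The share of the 10 most abundant genes was 6.66% and 6.69% against 8.86% and 9.98%. Genes of the mitochondrial genome had at most 1 count in a library. The part of these differences in the results below was not tested.

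PPN2 itself was measured at 220.0 and 207 CPM in CRN and 5997 and 6135 CPM in CRN/PPN2 (log2 fold change 4.83 ± 0.16, the standard error, with an adjusted p of 4.7e-13 by the edgeR quasi-likelihood test). The deleted gene PPN1 had 0 and 1 counts in CRN and 1 and 0 counts in CRN/PPN2. The plasmid marker URA3, an enzyme of uracil synthesis, was higher in CRN/PPN2 with KOH by 2.02 ± 0.14 on the log2 scale, against 2.84 in YPD, and this difference of -0.81 ± 0.19 passed its test (adjusted p = 0.0029). The other auxotrophy markers of the genotype, ADE2 (log2 fold change 0.99 ± 0.15) and HIS3 (0.93 ± 0.23), are not on the plasmid and also rose. Their adjusted p were 1.7e-05 and 0.0025. Yeast TRP1, which the genotype does not list as mutated, rose by 1.39 ± 0.19 (adjusted p = 6.0e-06). None of these 3 was called in YPD. TDH3, whose promoter drives the PPN2 insert, fell from 13807 and 16991 to 8918 and 9144 CPM (log2 fold change -0.76 ± 0.15, adjusted p = 0.00028). STE2, the alpha-factor receptor of MATa cells, was measured at 584 and 494 CPM in CRN and 341 and 320.1 CPM in CRN/PPN2. STE3, the a-factor receptor of MATalpha cells, had 14 and 18 counts in CRN and 22 and 16 counts in the smaller CRN/PPN2 libraries, which is 3.72 and 3.95 CPM against 13.9 and 18.97 CPM (log2 fold change 2.03 ± 0.35, adjusted p = 0.0001). Of 6 tested MATa genes 4 fell. All 3 tested MATalpha genes were called higher: STE3 and the alpha-factor gene MF(ALPHA)1, which reached the filter only in CRN/PPN2, and the alpha-agglutinin gene SAG1, at 15.9 and 24.1 CPM in CRN and 37.3 and 43.9 CPM in CRN/PPN2. Their part in the results below was not tested.

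Of 5430 genes tested, 1672 had a higher level in CRN/PPN2 and 1405 a lower one with KOH (56.7% of the genes tested, 30.8% higher and 25.9% lower). A log2 fold change of 1 or more was reached by 774 of the higher genes and 286 of the lower ones, 14.3% and 5.27% of those tested. The level filter was reached only through the CRN/PPN2 libraries by 196 genes, of which 182 were called higher and 0 lower (all 196 had to be high there), and only through the CRN libraries by 9 genes, of which 4 were called lower. The counts of gene lists below therefore leave out the 196 genes. The promoter shares below do not leave them out. Of the genes named below, LOH1, OSW1, DPA10, PHO92, RNP1, ECM8, SFC1, YOL160W, PHM7, PMA2 and FLO1 are among the 196. Over the 5234 others, 1490 were higher and 1405 lower, 28.5% and 26.8% (55.3% in either direction), with a median log2 fold change of -0.01. Split by mean level over all 8 libraries, the 1047 lowest of these genes, up to 37.3 CPM, had 350 higher and 120 lower, and the 1047 highest, from 194 CPM, had 249 higher and 454 lower. Split by mean level over the 4 YPD libraries, which the comparison does not use, these counts were 425 and 92 for the lowest and 202 and 487 for the highest. The 1037 shortest genes, up to 708 bases, had a median log2 fold change of 0.28, and the 4 groups of longer genes, split by length, had medians between -0.12 and -0.04. Whether level or length had a part in the calls was not tested.

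**Figure D1:**
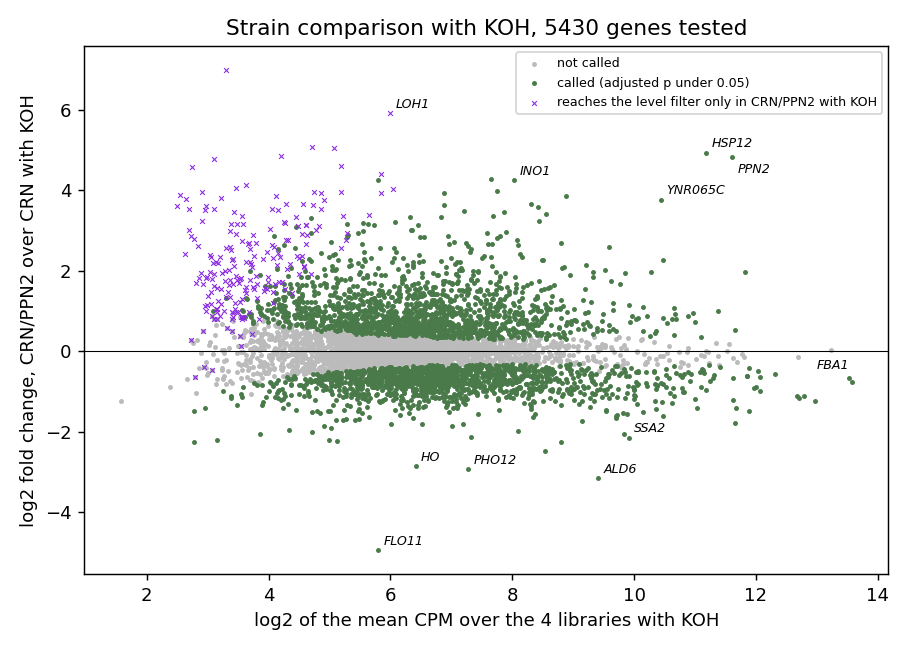
Each point is 1 of the 5430 genes tested, with the log2 of its mean CPM over the 4 libraries with KOH on the x axis and the log2 fold change of CRN/PPN2 over CRN on the y axis. Crosses mark the 196 genes that reach the level filter only in CRN/PPN2 with KOH, which sit mostly at the low end, while FLO11 lies lowest at -4.94 and PPN2 at 4.83 and HSP12 at 4.94 lie high among abundant genes.

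Among genes that reached 20 CPM in 1 group and moved the same way in both replicate pairs, the 12 largest rises were those of LOH1, DPA10, PHO92, HSP12, OSW1, PPN2, RNP1, ECM8, HSP30, INO1, SDH9 and SFC1, with log2 fold changes from 5.91 to 4.14. Apart from PPN2, the most abundant of them was HSP12, a small membrane-binding stress protein, at 139 and 152 CPM in CRN and 4989.6 and 4037 CPM in CRN/PPN2 (log2 fold change 4.94 ± 0.17, adjusted p = 6.1e-13). HSP30, a stress protein of the plasma membrane that lowers proton pump activity, was at 17.3 and 21.7 CPM in CRN and 330.2 and 438 CPM in CRN/PPN2 (log2 fold change 4.28 ± 0.17, adjusted p = 1.8e-12). SDH9, a second form of the succinate dehydrogenase flavoprotein, rose by 4.25 to 87.3 and 123 CPM. For LOH1, OSW1, DPA10, PHO92 and SFC1 each CRN library held at most 10 counts. LOH1 had 7 and 10 counts in CRN against 215 and 97 in CRN/PPN2, and OSW1, an outer spore wall gene, had 3 and 7 against 56 and 30. PHO92, a reader of methylated RNA, rose by 5.05 ± 0.31, the RNA-binding protein gene RNP1 by 4.60 ± 0.26, DPA10 by 5.08 ± 0.36 and the succinate-fumarate carrier gene SFC1 by 4.14 ± 0.42. CRN and CRN/PPN2 libraries did not overlap for any of these 12 genes, a pattern the rule for choosing them favours. How many of all tested genes show it was not counted, so it sets these genes apart from no others.

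The 12 largest falls were those of FLO11, ALD6, PHO12, HO, PHO89, HXT2, PHO11, PRM7, SSA2, GPD2, BSC1 and GPP1, from -4.94 to -2.04. FLO11, which encodes the cell surface adhesin for biofilm and pseudohyphal growth, was at 91.7 and 123 CPM in CRN and 1.90 and 5.93 CPM in CRN/PPN2, the latter from 3 and 5 counts. ALD6, the cytosolic acetaldehyde dehydrogenase that makes acetate, was at 1173 and 1271 CPM in CRN and 127 and 149 CPM in CRN/PPN2 (log2 fold change -3.15 ± 0.14, adjusted p = 8.1e-12). HO, the mating-type switching endonuclease, fell from 149 and 151 to 21.5 and 20.2 CPM. GPD2 and GPP1, both of glycerol synthesis, fell from 259 and 262 to 56.9 and 64.0 CPM and from 1337 and 1613 to 362 and 344 CPM. PRM7 and BSC1 had log2 fold changes of -2.19 ± 0.30 and -2.04 ± 0.41, and the CRN/PPN2 replicates lay wide apart in proportion, at 3.80 and 8.30 CPM for BSC1.

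**Figure D2:**
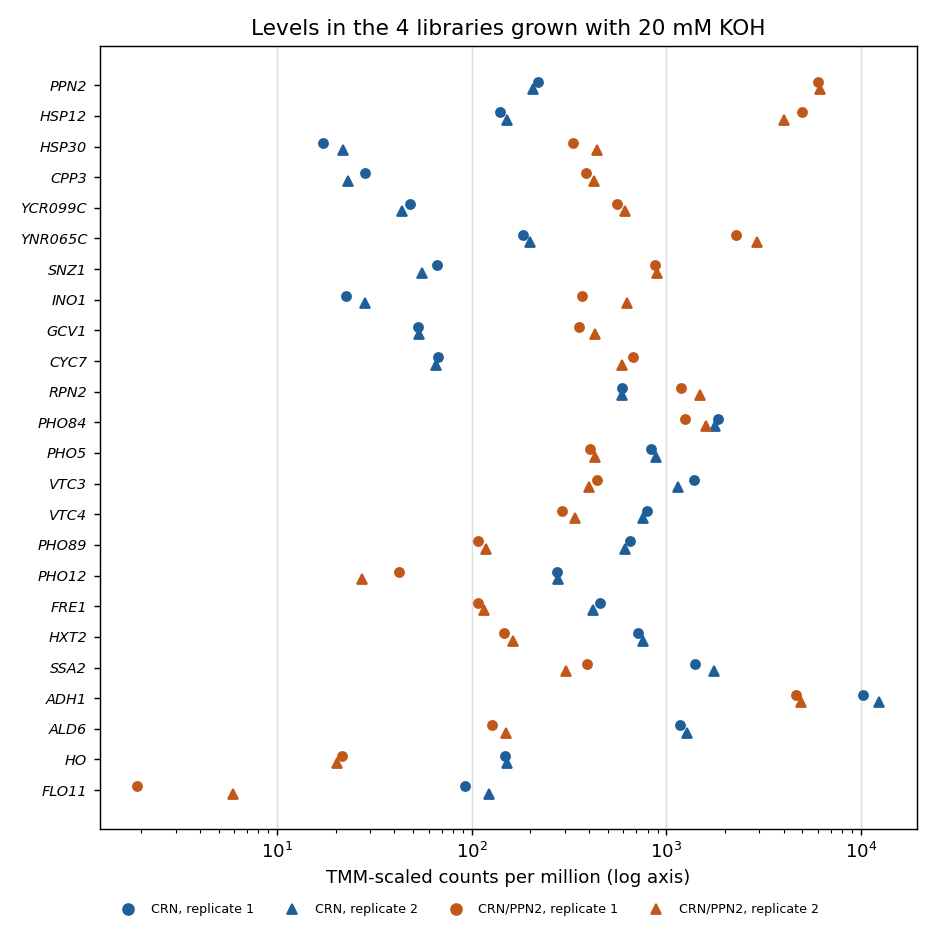
TMM-scaled CPM (log axis) of 24 genes in each of the 4 libraries with KOH, circles for replicate 1 and triangles for replicate 2, blue for CRN and orange for CRN/PPN2. The strains are separate for every gene shown, down to PHO84, where CRN lies at 1843 and 1779 and CRN/PPN2 at 1241 and 1595. These genes were picked from those called, a choice that favours such separation. The share of all tested genes that separate in this way was not counted. Of all genes tested, 56.7% were called with KOH.

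Of 6 tested genes for cutting polyphosphate, pyrophosphate or inositol pyrophosphates, 2 rose and 3 fell, and of the 5 VTC genes that make polyphosphate 4 fell. Beside PPN2 the one that rose was SIW14, an inositol pyrophosphate phosphatase, at 114 and 112 CPM in CRN and 193 and 114 CPM in CRN/PPN2 (log2 fold change 0.44 ± 0.15, adjusted p = 0.021), where the lower CRN/PPN2 library was level with CRN and the list held 1 rise when CRN replicate 1 or CRN/PPN2 replicate 1 was left out. DDP1, a phosphatase of both polyphosphate and inositol pyrophosphates, was not called (log2 fold change 0.30 ± 0.19, adjusted p = 0.2). PPX1, the cytosolic exopolyphosphatase, was at 191 and 188 CPM in CRN and 156 and 133 CPM in CRN/PPN2 (log2 fold change -0.39 ± 0.13, adjusted p = 0.016), a call that was lost without CRN replicate 2 (log2 fold change -0.32, adjusted p = 0.13). The pyrophosphatases IPP1 of the cytosol and PPA2 of mitochondria, which split the pyrophosphate left by biosynthesis, both fell, with log2 fold changes of -0.78 ± 0.14 and -0.76 ± 0.15. On the side of synthesis, VTC4, the catalytic subunit, was at 791 and 761 CPM in CRN and 292 and 340.3 CPM in CRN/PPN2 (log2 fold change -1.30 ± 0.14, adjusted p = 4.8e-07), and VTC3, the partner subunit of the vacuolar complex, at 1382 and 1142 CPM in CRN and 441 and 401 CPM in CRN/PPN2 (log2 fold change -1.58 ± 0.13, adjusted p = 2.5e-08). VTC1 and VTC2 had log2 fold changes of -1.21 ± 0.16 and -1.22 ± 0.13. VTC5, an accessory subunit, did not pass the test at 94.3 and 90.5 CPM in CRN and 91.1 and 108 CPM in CRN/PPN2 (log2 fold change 0.09 ± 0.15, adjusted p = 0.63). Summed over the 5 genes, the level was 3515 and 3358 CPM in CRN and 1389 and 1396 CPM in CRN/PPN2. All 5 were also called lower in CRN/PPN2 in YPD.

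Of the 17 genes of the PHO regulon list, which holds VTC1 to VTC4, 13 fell and 1 rose, with a median log2 fold change of -1.06 against -0.01 over all genes. The fall was also present in YPD, where 15 of the 17 were lower in CRN/PPN2 and 0 higher (median -0.77). Over all genes tested, 2.38% were lower and 4.13% higher in YPD. The fall was large for the secreted acid phosphatases: PHO12 was at 273 and 279 CPM in CRN and 42.4 and 27.3 CPM in CRN/PPN2 (log2 fold change -2.92 ± 0.17, adjusted p = 2.0e-10), PHO11 at 55.8 and 60.3 CPM in CRN and 13.3 and 10.7 CPM in CRN/PPN2 and PHO5 at 830.4 and 879 CPM in CRN and 406 and 432 CPM in CRN/PPN2. PHO11 and PHO12 are near-identical copies, so their split of reads is uncertain. PHO89, the sodium-phosphate cotransporter used at alkaline pH, fell from 648 and 614 to 108 and 119 CPM (log2 fold change -2.48 ± 0.16, adjusted p = 4.9e-10). PHO84, the high-affinity proton-phosphate transporter, changed far less: 1843 and 1779 CPM in CRN and 1241 and 1595 CPM in CRN/PPN2 (log2 fold change -0.37 ± 0.15, adjusted p = 0.043). Its call was lost in 10 of the alternative fits, for example without CRN replicate 1 (log2 fold change -0.20, adjusted p = 0.44). The vacuolar alkaline phosphatase PHO8 was at 249.5 and 246 CPM in CRN and 235 and 268 CPM in CRN/PPN2 and was not called (adjusted p = 0.92). SPL2, which restrains low-affinity phosphate uptake, was not called either (log2 fold change -0.34 ± 0.16, adjusted p = 0.08), but was called without CRN/PPN2 replicate 1 (-0.83, adjusted p = 0.00034). PHM6, of unknown function, fell from 62.4 and 66.7 to 32.9 and 16.6 CPM (log2 fold change -1.29 ± 0.22). The 1 member that rose was GDE1, a glycerophosphocholine phosphodiesterase that frees glycerol phosphate, at 124 and 137 CPM in CRN and 257 and 357 CPM in CRN/PPN2 (log2 fold change 1.21 ± 0.13, adjusted p = 4.7e-07).

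Of 7 genes of PHO signalling 4 fell and 0 rose. PHO81, the inhibitor of the PHO80 and PHO85 kinase complex and itself a target of PHO4, fell from 197 and 199.9 to 112 and 115 CPM, and PHO4 from 38.0 and 39.7 to 17.1 and 23.7 CPM (log2 fold change -0.95 ± 0.23, adjusted p = 0.0018). IPK1, which makes inositol hexakisphosphate for pyrophosphate synthesis, rose from 43.6 and 36.6 to 123 and 113 CPM (log2 fold change 1.56 ± 0.15, adjusted p = 1.2e-07). PHO91, the vacuolar phosphate exporter, rose by 0.55 ± 0.19 (adjusted p = 0.018), but without CRN/PPN2 replicate 1 its log2 fold change was 0.03 (adjusted p = 0.9). PHM7, a membrane protein of unknown function, was at 4.52 and 5.70 CPM in CRN and 41.1 and 46.2 CPM in CRN/PPN2. The Pho4 site CACGTG was present in the 300-base promoter windows of 4 of the 17 regulon genes, including both copies printed for VTC4, and in 2.98% of the 5329 tested genes with a window. It was found in 4.29% of the genes that fell and 2.22% of those that rose. The windows of PHO5, PHO11, PHO12, PHO84, PHO89, PHO81, PHM6, VTC2 and VTC3 held 0 copies. VTC1, which fell, and PHO91, which rose, held 1 each, and SPL2, not called, held 3. Bases further than 250 before the start were not searched.

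The study followed a family of short cysteine-rich membrane proteins, the CYSTM proteins. Of its 5 members, CPP3 rose from 28.2 and 23.0 to 386 and 423 CPM (log2 fold change 3.98 ± 0.15, adjusted p = 1.3e-12) and CPP1 fell from 39.9 and 54.4 to 16.4 and 15.4 CPM (log2 fold change -1.49 ± 0.23, adjusted p = 3.0e-05). CPP2, MNC1 and YDL012C had log2 fold changes of 0.06 ± 0.17, 0.14 ± 0.25 and -0.19 ± 0.23 and were not called. The element AGGGG lay in the promoter windows of 2 of the 5, CPP3 and CPP1, which moved in opposite directions. It was present in 21.7% of all promoters. The study singled out CPP3, YCR099C, ADH2, ECM8 and YOL160W from its own comparison, and all 5 were higher here, which is not independent evidence since they were chosen on these samples. YCR099C was at 48.4 and 43.8 CPM in CRN and 559.9 and 615 CPM in CRN/PPN2 (log2 fold change 3.67 ± 0.14, adjusted p = 1.4e-12), ADH2, the alcohol dehydrogenase that consumes ethanol, at 14.3 and 18.6 CPM in CRN and 99.3 and 94.9 CPM in CRN/PPN2, ECM8 at 5.85 and 4.60 CPM in CRN and 106 and 113 CPM in CRN/PPN2 and YOL160W at 3.19 and 2.41 CPM in CRN and 32.9 and 39.1 CPM in CRN/PPN2. YCR099C (chromosome III, 300832 to 301299) overlaps EMA35 (301271 to 302221) and lies near YCR101C (302482 to 303030), and all 3 rose: EMA35 from 70.2 and 58.1 to 584 and 791 CPM and YCR101C from 19.4 and 21.0 to 174 and 241 CPM. YNR065C, another gene of unknown function, rose from 183 and 198 to 2285 and 2919 CPM (log2 fold change 3.77 ± 0.15, adjusted p = 1.7e-12) and YGR153W from 38.0 and 39.0 to 433 and 419 CPM. Of 302 proteins with no name in the deposited table and no known function, 143 rose and 29 fell (median 0.42), and without CRN replicate 2 the count of falls was 16 in place of 29.

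Pumps and transporters that set pH and ion balance changed in part. PMA1, the plasma membrane proton pump, fell from 3001 and 3150.1 to 1760.0 and 2134 CPM (log2 fold change -0.67 ± 0.14, adjusted p = 0.00053), while its minor form PMA2 was at 5.31 and 5.26 CPM in CRN and 20.9 and 21.3 CPM in CRN/PPN2. Of 15 V-ATPase subunits, which acidify the vacuole, 4 fell, 1 rose and 10 were not called, with 2 to 10 falls over the alternative settings. The falls were near the background, where 26.8% of genes were lower. The one that rose was VMA10, a peripheral stalk subunit, at 515 and 540.2 CPM in CRN and 1354 and 819 CPM in CRN/PPN2, and VMA5, subunit C, fell most, from 657 and 569.8 to 273 and 299 CPM (log2 fold change -1.11 ± 0.14, adjusted p = 2.4e-06). In the Rim101 pathway of alkaline response, 5 of 9 tested genes rose and 0 fell: the membrane sensor RIM21 was at 93.8 and 84.4 CPM in CRN and 248 and 258 CPM in CRN/PPN2 (log2 fold change 1.50 ± 0.14, adjusted p = 7.0e-08), but RIM101 itself was not called (-0.28 ± 0.18, adjusted p = 0.18). TRK1, the main potassium importer, rose from 159 and 163 to 385 and 430.4 CPM (log2 fold change 1.33 ± 0.12, adjusted p = 5.5e-08). GSC2, the glucan synthase turned on by calcineurin and cell wall stress, rose from 491 and 515 to 1643 and 2324 CPM (log2 fold change 1.97 ± 0.14, adjusted p = 4.1e-09).

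Metal genes were mixed. In the iron regulon, 9 of 23 genes fell and 6 rose, where 26.8% of all genes fell and 28.5% rose. The rises were thus near the background. The YPD comparison had 10 of these 23 lower and 1 higher (median -0.53), against 2.38% and 4.13% of all genes tested. The ferric reductase FRE1 fell from 455 and 418 to 108 and 115 CPM (log2 fold change -1.99 ± 0.14, adjusted p = 2.2e-09) and the multicopper oxidase FET3 of high-affinity uptake from 198 and 259.8 to 64.5 and 61.7 CPM (log2 fold change -1.80 ± 0.16, adjusted p = 3.6e-08). TIS11, an RNA-binding protein that lowers iron-using transcripts, fell from 23.9 and 29.2 to 11.4 and 13.0 CPM, with a log2 fold change of -1.12 ± 0.28 against -3.16 in YPD. ZPS1, a cell wall protein induced by low zinc and alkaline pH, rose from 14.6 and 13.6 to 174 and 267 CPM (log2 fold change 3.94 ± 0.18, adjusted p = 1.0e-11), and ZRT1, the high-affinity zinc transporter, from 189 and 184 to 306 and 414 CPM.

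Stress and storage genes rose together. In the list of Msn2 and Msn4 targets, 26 of 33 genes rose and 2 fell, with a median log2 fold change of 1.43. Without KOH, 23 of all 35 tested members were already higher in CRN/PPN2 and 0 lower (median 0.73). Among stationary phase markers, 8 of 10 rose and 0 fell, with 6 more members left out because they reached the filter only in CRN/PPN2. SNZ1, of vitamin B6 synthesis and a classic stationary phase gene, was at 66.2 and 55.7 CPM in CRN and 874 and 894 CPM in CRN/PPN2 (log2 fold change 3.86 ± 0.15, adjusted p = 1.6e-12). Its YPD levels were 534 and 561 CPM in CRN and 558 and 471 CPM in CRN/PPN2, so CRN with KOH was the group with low SNZ1. For trehalose and glycogen the counts were 15 higher and 2 lower of 20 (median 1.18). Glycogen phosphorylase GPH1, which breaks glycogen down, was at 222 and 207 CPM in CRN and 1003 and 1638 CPM in CRN/PPN2 (log2 fold change 2.60 ± 0.17, adjusted p = 1.3e-09), GAC1, the phosphatase subunit that activates glycogen synthase, at 7.17 and 12.5 CPM in CRN and 64.5 and 71.1 CPM in CRN/PPN2, and the trehalase NTH1 at 124 and 143 CPM in CRN and 320.1 and 371 CPM in CRN/PPN2. Genes of both glycogen building and glycogen breakdown rose. The element AGGGG lay in 26 of the 35 Msn2 and Msn4 promoters. It was present in 29.1% of the promoters of genes that rose, 15.4% of those that fell and 21.7% of all.

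Vacuolar breakdown followed the same direction. Of 12 vacuolar hydrolases 8 rose and 0 fell, among them proteinase A, PEP4, from 351 and 399 to 578 and 676 CPM (log2 fold change 0.74 ± 0.13, adjusted p = 0.00011). Of 23 autophagy genes 16 rose and 0 fell (median 0.85), and ATG8, the ubiquitin-like protein that coats autophagosomes, was at 30.0 and 34.6 CPM in CRN and 161 and 147 CPM in CRN/PPN2 (log2 fold change 2.25 ± 0.15, adjusted p = 1.4e-09). Of 37 proteasome genes 18 rose and 0 fell with a median of 0.28. RPN2, a scaffold of the regulatory particle, rose from 593 and 593 to 1187 and 1479.8 CPM (log2 fold change 1.16 ± 0.14, adjusted p = 1.5e-06). The element GGTGGCA was present in 28 of the 37 proteasome promoters and in 3.06% of all promoters. In YPD 31 of the same genes were higher in CRN/PPN2 (median 0.55), and the strain effect was called smaller with KOH for 10 and larger for 4.

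Chaperones moved both ways. Of 23 cytosolic chaperones 8 rose and 13 fell. The constitutive Hsp70 gene SSA2 was at 1406 and 1764 CPM in CRN and 391 and 304 CPM in CRN/PPN2 (log2 fold change -2.15 ± 0.18, adjusted p = 2.0e-08), with near-identical paralogs that make the split of reads uncertain. In redox defence, 9 of 22 genes rose and 2 fell, with 4 falls when either CRN/PPN2 library was left out. Glutaredoxin GRX1 rose from 267 and 256 to 1137 and 915 CPM (log2 fold change 1.97 ± 0.13, adjusted p = 1.2e-09) and the cytosolic thioredoxin reductase TRR1 fell from 584 and 575 to 282 and 292 CPM (log2 fold change -1.02 ± 0.13, adjusted p = 3.8e-06).

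Genes of growth fell. Of 138 cytosolic ribosomal protein genes 80 fell and 10 rose (median -0.52). They took 23.7% and 23.6% of the counts in CRN and 21.2% and 16.4% in CRN/PPN2, so the CRN/PPN2 replicates lay further apart than the CRN ones. The count of rises rested on single libraries: 4 without CRN replicate 1 and 24 without CRN/PPN2 replicate 2. RPS7B, of the small subunit, fell from 785 and 963 to 281 and 235 CPM (log2 fold change -1.73 ± 0.17, adjusted p = 1.2e-07). Ribosome biogenesis genes had 50 falls and 13 rises of 89 (median -0.49), with 6 rises without CRN replicate 1. The large-subunit GTPase gene NOG2 was at 513 and 473 CPM in CRN and 173 and 164 CPM in CRN/PPN2, while KRI1, of small-subunit assembly, rose from 307 and 360.2 to 684 and 707 CPM (log2 fold change 1.06 ± 0.13, adjusted p = 1.7e-06).

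Translation factors fell in 22 and rose in 4 of 31 cases, and EFT2, which encodes elongation factor 2 as does EFT1, fell from 628 and 642 to 213 and 298 CPM (log2 fold change -1.34 ± 0.14, adjusted p = 4.7e-07). Subunits of RNA polymerases I and III fell in 9 and rose in 3 of 20. Mitochondrial ribosomal proteins fell in 30 and rose in 11 of 77, but the rises were 2 without CRN/PPN2 replicate 1 and 3 without CRN replicate 1. MRP4, of the mitochondrial small subunit, was at 124 and 149 CPM in CRN and 58.8 and 40.3 CPM in CRN/PPN2. Of 26 histone and DNA replication genes 16 fell and 2 rose (median -0.64). Histone H2B gene HTB2 fell from 287 and 329.5 to 157 and 102 CPM, and the 2 that rose were MCM2, a helicase subunit, from 75.5 and 73.7 to 159 and 204 CPM (log2 fold change 1.26 ± 0.14, adjusted p = 7.2e-07), and RFA3 of the single-strand binding complex, named here after its value was seen.

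**Figure D3:**
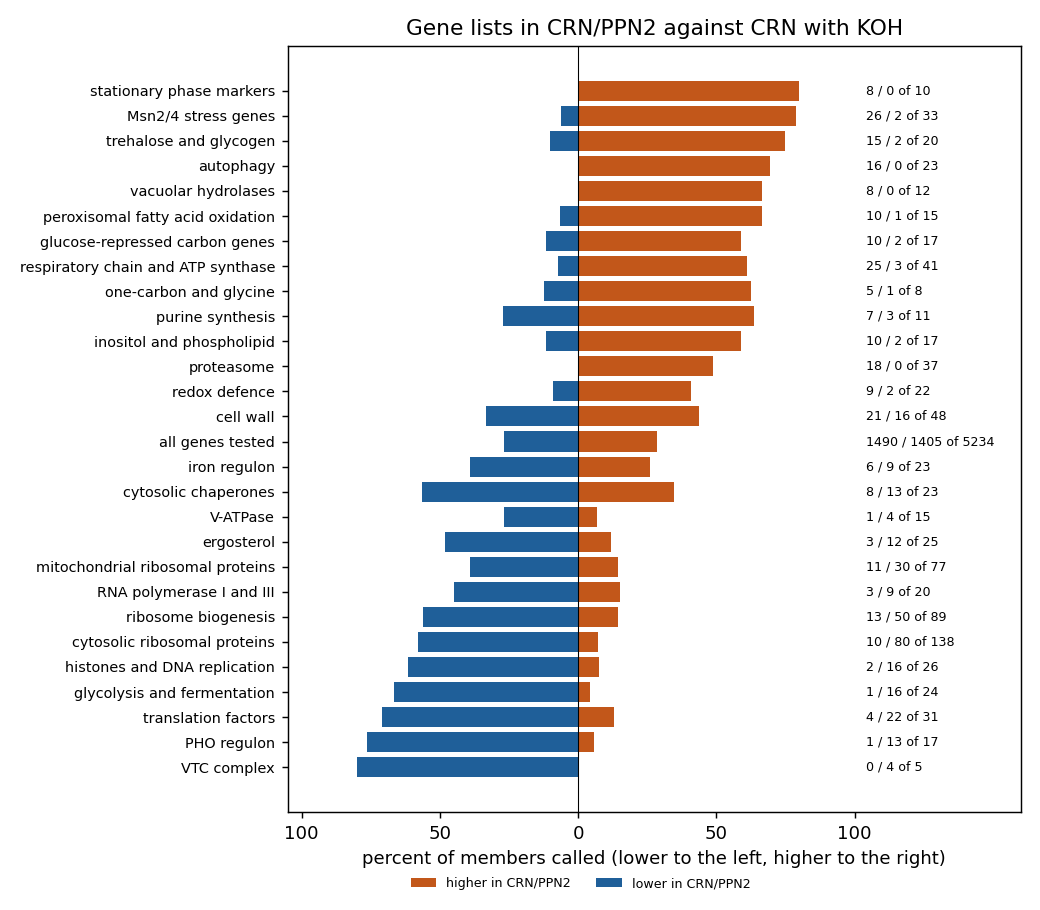
Percent of the members of each list that were called higher (orange, to the right) or lower (blue, to the left) in CRN/PPN2 than in CRN with KOH, with the counts higher / lower of members at the right edge. Members that reach the level filter only in CRN/PPN2 with KOH are left out. All genes gave 1490 higher and 1405 lower of 5234, Msn2/4 stress genes 26 and 2 of 33, and the PHO regulon 1 and 13 of 17.

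Most genes of glycolysis and fermentation and of the respiratory chain changed, the former mainly down and the latter mainly up, while the TCA cycle list stayed near the background with 5 rises and 3 falls of 15 (median 0.11). The TCA rises were 3 when either CRN library or CRN/PPN2 replicate 1 was left out. Of 24 genes of glycolysis and fermentation 16 fell and 1 rose (median -0.71). The one that rose was TDH1, a minor glyceraldehyde phosphate dehydrogenase, named after its value was seen. Hexokinase HXK2 fell from 1438 and 1367 to 437 and 530.0 CPM (log2 fold change -1.55 ± 0.14, adjusted p = 5.7e-08), phosphoglycerate kinase PGK1 from 9087 and 9401 to 3828 and 4463 CPM and the main fermentative alcohol dehydrogenase ADH1 from 10229 and 12432 to 4652 and 4936 CPM (log2 fold change -1.23 ± 0.14, adjusted p = 1.2e-06). HXT2, a high-affinity glucose transporter, fell from 715 and 756 to 146 and 162 CPM (log2 fold change -2.25 ± 0.14, adjusted p = 3.8e-10), whereas HXT7, another one with the near-identical copy HXT6, rose from 183 and 184 to 499.8 and 551 CPM (log2 fold change 1.51 ± 0.13, adjusted p = 2.8e-08). Among glucose-repressed carbon genes 10 rose and 2 fell of 17, with 6 more reaching the filter only in CRN/PPN2. IDP2, a cytosolic isocitrate dehydrogenase that gives NADPH, rose from 13.3 and 14.9 to 65.2 and 96.0 CPM. The citrate synthases went opposite ways: the mitochondrial CIT1 rose from 204 and 187 to 479.5 and 778 CPM and the peroxisomal CIT2 fell from 179 and 171 to 66.4 and 67.6 CPM.

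Of 41 nuclear genes of the respiratory chain and ATP synthase 25 rose and 3 fell (median 0.60). Over all 42 tested members the rises were 17 without CRN/PPN2 replicate 1, in place of 26. CYC7, the second cytochrome c, was at 67.0 and 65.3 CPM in CRN and 671 and 589 CPM in CRN/PPN2 (log2 fold change 3.24 ± 0.14, adjusted p = 4.3e-12), COX5B, the low-oxygen form of a cytochrome oxidase subunit, at 141 and 128 CPM in CRN and 343 and 245 CPM in CRN/PPN2, and STF1, which stabilises the inhibited ATP synthase, at 51.8 and 47.1 CPM in CRN and 239 and 197 CPM in CRN/PPN2. Of 15 peroxisomal fatty acid genes 10 rose and 1 fell.

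The cell wall list gave 21 rises and 16 falls of 48, and over its 50 tested members the falls were 10 without CRN replicate 1 in place of 16. PIR3, a wall glycoprotein, rose from 39.3 and 54.8 to 247 and 295 CPM (log2 fold change 2.55 ± 0.15, adjusted p = 1.9e-10), the chitin-glucan linking enzyme CRH1 from 383 and 447 to 1133 and 1533 CPM and the wall integrity protein PST1 from 266 and 281 to 747 and 1268 CPM. Of the 2 flocculins that reached the filter in the other 6 libraries, FLO11 fell and FLO5 rose, at 15.7 and 24.6 CPM in CRN and 60.7 and 86.6 CPM in CRN/PPN2. FLO1, at 3.45 and 4.38 CPM in CRN and 32.3 and 47.4 CPM in CRN/PPN2, is among those that reached it only in CRN/PPN2. These are repetitive genes with near-identical copies, and their counts are uncertain. Of 25 ergosterol genes 12 fell and 3 rose, but only 6 fell without CRN replicate 1 and 7 without CRN replicate 2. Squalene epoxidase ERG1 fell from 1299 and 1258 to 549 and 602 CPM (log2 fold change -1.15 ± 0.14, adjusted p = 1.4e-06).

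Inositol and phospholipid genes had 10 rises and 2 falls of 17. INO1, the enzyme that makes inositol phosphate from glucose phosphate, was at 22.6 and 28.3 CPM in CRN and 368 and 628 CPM in CRN/PPN2 (log2 fold change 4.26 ± 0.17, adjusted p = 2.0e-12), with the CRN/PPN2 replicates far apart but above both CRN libraries. The inositol transporter ITR1 was at 467 and 497 CPM in CRN and 2029 and 2673 CPM in CRN/PPN2 (log2 fold change 2.28 ± 0.14, adjusted p = 4.7e-10) and OPI3, of phosphatidylcholine synthesis, at 141 and 208 CPM in CRN and 671 and 774 CPM in CRN/PPN2. For one-carbon metabolism 5 of 8 genes rose and 1 fell. Their summed level was 1432 and 1570 CPM in CRN and 2743 and 2914.5 CPM in CRN/PPN2, below the 6217 to 7576 CPM of the YPD libraries. GCV1, of the glycine cleavage system, rose from 52.6 and 53.7 to 354 and 429 CPM (adjusted p = 1.4e-10) and the serine hydroxymethyltransferase SHM2 from 199 and 241 to 982 and 958 CPM. Purine synthesis had 7 rises and 3 falls of 11, led by the folate dehydrogenase MTD1, from 120.1 and 118 to 800.3 and 742 CPM (adjusted p = 3.3e-11). The sum over these genes was 3892 and 4013 CPM in CRN and 6857 and 7085 CPM in CRN/PPN2, below the 11352 to 13639 CPM of the YPD libraries. In sulfate and methionine metabolism 6 genes rose and 8 fell of 21, where 28.5% of all genes rose and 26.8% fell. The rises were thus near the background. In YPD 14 of these were lower and 0 higher, against 2.38% and 4.13% of all genes tested. The regulator MET32 rose from 14.1 and 11.8 to 120.2 and 122 CPM and the methionine permease MUP3 from 3.99 and 5.26 to 38.6 and 55.7 CPM. The adenylylsulfate kinase MET14 fell from 204 and 193 to 79.1 and 72.3 CPM (log2 fold change -1.40 ± 0.14, adjusted p = 2.1e-07).

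Genes of meiosis and sporulation had very low levels in CRN. Of 59 in the table, 38 were tested and 24 of these reached the filter only in CRN/PPN2 with KOH. Of the other 14, 8 rose and 0 fell. The summed level of all 59 was 432 and 427 CPM in CRN and 1449 and 1611 CPM in CRN/PPN2. SPO1, a meiotic phospholipase-like protein, was at 23.4 and 22.6 CPM in CRN and 106 and 108 CPM in CRN/PPN2 (log2 fold change 2.22 ± 0.16, adjusted p = 4.2e-09). The Ume6 site GGCGGC, through which meiotic genes are repressed in growing cells, was in 8 of the 38 promoters and in 4.56% of all. Those 38 include the 24 genes that reached the filter only in CRN/PPN2 with KOH. Dubious open reading frames, which should give few transcripts of their own, showed the same direction, with 14 rises and 4 falls of 36. Subtelomeric COS and seripauperin genes rose in 7 of 8 cases, COS6 from 148 and 135 to 385 and 486 CPM, but these too share near-identical copies.

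In YPD, 353 of the same 5430 genes (6.5%) were called between the strains, 224 higher (4.13%) and 129 lower (2.38%). The 2 strain comparisons share no library. Of these 353 genes 258 were also called with KOH, 231 the same way and 27 the opposite way. The test of the difference was passed by 1138 of the 1672 genes that rose with KOH and by 881 of the 1405 that fell, each in the direction of its change with KOH. Over all genes tested, 22.2% passed it as higher and 17.6% as lower. This test contains the KOH comparison itself, so genes called with KOH were likelier to pass it in that direction. The counts are therefore not independent of the calls. PPN2 differed by -0.15 ± 0.19 (adjusted p = 0.55), so its rise was of like size in both media within this error. PHO89 and PHO11 were also lower in YPD, by log2 fold changes of -2.29 and -1.96, and their differences of -0.19 ± 0.21 and -0.26 ± 0.32 were not called. PHO12, VTC3 and FLO11 fell further with KOH than in YPD, with differences of -1.40 ± 0.22, -0.97 ± 0.18 and -3.22 ± 0.52. PHO5 fell less with KOH, and PHO8, lower in YPD (log2 fold change -0.71), was not called with KOH, with differences of 0.75 ± 0.19 and 0.73 ± 0.18. For PHO5 that call was lost without CRN replicate 2 in YPD (0.59, adjusted p = 0.075). BSC1 was higher in YPD (log2 fold change 2.71, adjusted p = 0.038) and lower with KOH. Its YPD side rests on 0.68 and 0 CPM in CRN and 1.63 and 3.14 CPM in CRN/PPN2, all below the 10 CPM of the filter. Without single libraries its difference ran from -8.35 to -3.59. GDE1 went from -0.36 in YPD, not called, to 1.21 with KOH.

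**Figure D4:**
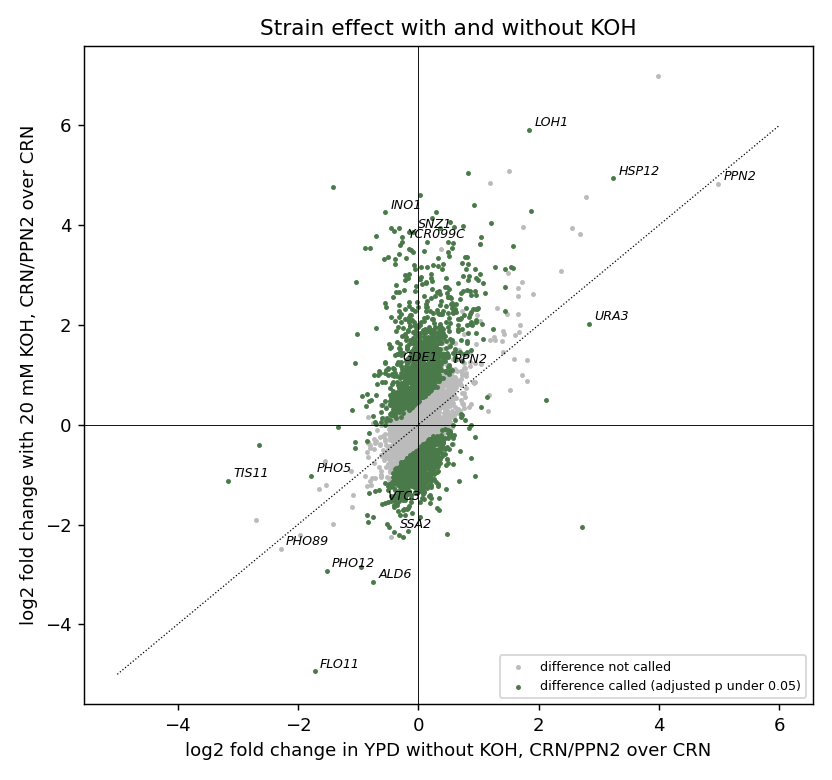
Log2 fold change of CRN/PPN2 over CRN in YPD without KOH (x axis) and with 20 mM KOH (y axis) for the 5430 genes tested, green where the difference was called and grey elsewhere, with the dotted line where both are equal. PPN2 lies near the line at 4.98 and 4.83, HSP12 above it at 3.23 and 4.94, and most green genes lie near 0 in YPD.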

How the data were processed

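The deposited gene counts are whole read counts of 7127 genes in 8 libraries of poly(A) RNA, made by the authors with STAR 2.7.6a on assembly R64 with its gene count mode; the strand column used is not given in the sources used here, so a gene and its antisense partner may share reads. Each of the 8 per-library files equalled its column. Genes with 10 or more CPM in at least 2 libraries (5430) were tested by the quasi-likelihood method of edgeR 4.0.16 under R 4.3.3, scaled by TMM, at a Benjamini-Hochberg adjusted p under 0.05, with the 4 groups and the replicate number in one model of all 8 libraries. By the study's methods, samples of one number were prepared and sequenced together. Over 5430 genes, deviations of equal numbers correlated least, at 0.0923, between CRN and CRN/PPN2 with KOH, the groups compared here. They correlated most, at 0.465, between the 2 groups in YPD. The spread between replicates was 0.308 on the log2 scale in CRN/PPN2 with KOH and 0.165 in CRN with KOH. In YPD it was 0.187 in CRN and 0.214 in CRN/PPN2. The model pools the spread over all groups, so the standard errors do not show this. Fold changes are log2, CRN/PPN2 over CRN, ± standard error (SE). Names missing from the table came from RefSeq for 189 genes; 6047 of 7127 IDs matched. Promoter windows run from 250 bases before to 50 after the annotated start, for 5329 tested genes. The gene lists and members were chosen with earlier results of these data known. Named genes are the 12 largest rises and falls, the members of each list with the smallest adjusted p, genes the study names and strain markers; GDE1, TIS11, NTH1, PEP4, TRR1, RPS7B, KRI1, ADH1, PGK1, CIT2, COX5B, CRH1, PST1 and YCR101C were added after their values were seen. Alternatives used DESeq2 1.42.0 and ComBat-seq (sva 3.50.0), other factors, filters and libraries.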

Additional observations from a re-analysis of the deposited data

Results flagged for a closer look

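The strain effect with KOH was set against that in YPD by the test of the difference itself, and 1203 genes (22.2% of those tested) had a higher and 953 (17.6%) a lower effect with KOH. The values below are these differences on the log2 scale for the genes named above that passed it (edgeR quasi-likelihood test, adjusted p under 0.05). A positive value can also belong to a gene that fell less with KOH, as for TIS11 and PHO5. Harvest time, wash and lysis differed between the strains with KOH but not in YPD, and cannot be told apart from the medium here. Of the strain markers and the genes named beside them, the effect was higher with KOH for ADE2 (1.34), HIS3 (1.23) and TRP1 (1.77), and it was lower for URA3 (-0.81) and STE2 (-0.52). Of polyphosphate and phosphate genes, the effect was higher with KOH for VTC5 (0.56), PHO5 (0.75), PHO8 (0.73), PHO91 (0.84), SPL2 (0.71), GDE1 (1.57), IPK1 (1.60) and PHM7 (2.18), and it was lower for PPX1 (-0.51), IPP1 (-0.74), PPA2 (-0.90), VTC2 (-0.73), VTC3 (-0.97), VTC4 (-0.66) and PHO12 (-1.40). Of CYSTM genes and those the study singled out, the effect was higher with KOH for CPP3 (3.23), ECM8 (3.47), YCR099C (3.94), YOL160W (3.16) and ADH2 (2.04), and it was lower for CPP1 (-1.58). Of pH, ion and metal genes, the effect was higher with KOH for VMA10 (1.10), TRK1 (1.31), RIM21 (1.49), GSC2 (1.99), TIS11 (2.04) and ZPS1 (3.59), and it was lower for VMA5 (-1.05), FET3 (-0.96) and FRE1 (-1.47). Of stress, storage and breakdown genes, the effect was higher with KOH for HSP12 (1.71), GPH1 (1.64), HSP30 (2.40), SNZ1 (3.96), GAC1 (1.76), NTH1 (1.24), RPN2 (0.66), ATG8 (1.63), PEP4 (0.57) and GRX1 (1.79), and it was lower for SSA2 (-1.75) and TRR1 (-0.93).

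Of growth genes, the effect was higher with KOH for KRI1 (1.10) and MCM2 (1.60), and it was lower for RPS7B (-1.40), NOG2 (-1.77), EFT2 (-1.06), MRP4 (-1.34) and HTB2 (-1.28). Of carbon and respiration genes, the effect was higher with KOH for HXT7 (1.15), IDP2 (2.33), CIT1 (1.40), CYC7 (2.51), COX5B (0.87), STF1 (2.02), SDH9 (3.96) and SFC1 (3.90), and it was lower for ALD6 (-2.40), HXK2 (-1.04), ADH1 (-1.04), TDH3 (-0.59), PGK1 (-0.98), HXT2 (-1.998), CIT2 (-1.21), GPD2 (-1.96) and GPP1 (-1.55). Of wall and lipid genes, the effect was higher with KOH for PIR3 (2.01), CRH1 (1.75), PST1 (1.73), FLO5 (2.06), FLO1 (3.71), INO1 (4.81), ITR1 (2.15) and OPI3 (1.61), and it was lower for FLO11 (-3.22) and ERG1 (-1.03). Of one-carbon and sulfur genes, the effect was higher with KOH for MTD1 (2.93), GCV1 (2.64), SHM2 (2.61), MET32 (3.61) and MUP3 (3.89). Of the other genes named, the effect was higher with KOH for LOH1 (4.07), SPO1 (1.84), PHO92 (4.22), RNP1 (4.57), YNR065C (4.04), EMA35 (3.74), YCR101C (3.56), YGR153W (3.55) and COS6 (1.45), and it was lower for HO (-1.90), PRM7 (-2.68) and BSC1 (-4.76). Leaving out 1 library ended the call of the difference for ADH2, ECM8, IPP1, PEP4, PHO5, PHO91, PPX1, RPN2, SFC1, SPL2, STE2, TDH3, VTC4, VTC5 and YOL160W. Without CRN replicate 2 in YPD the difference was 0.57 for SFC1 (adjusted p = 0.78), 1.37 for ADH2 (adjusted p = 0.3) and 2.19 for ECM8 (adjusted p = 0.14). For YOL160W it was 2.53 without CRN/PPN2 replicate 2 in YPD (adjusted p = 0.059). Without CRN/PPN2 replicate 1 with KOH it was 0.33 for PHO91 (adjusted p = 0.25) and 0.22 for SPL2 (adjusted p = 0.38). For the other 9 genes the differences without single libraries stayed within 1.5 times of the values above.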

How the results depend on the processing

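The calls rest on 2 libraries a group, and the smallest CRN/PPN2 library held 796548 counts, so changes of low genes are the least certain. With 20 alternative settings the higher genes numbered 1337 to 1811 and the lower ones 1060 to 1715, all within 1.5 times of 1672 and 1405. Leaving out 1 library at a time gave 1337 to 1639 higher and 1060 to 1378 lower, and at a log2 fold change of 1 or more 760 to 820 and 286 to 425. Without the replicate block 1497 genes were higher and 1181 lower, and the genes whose strain effect differed between media numbered 883 higher and 614 lower, in place of 1203 and 953. Thinning all libraries to the smallest gave 698 and 597 such genes. Leaving out single libraries gave 861 to 1273 and 612 to 1044, the lowest without CRN replicate 1 with KOH; without CRN replicate 2 with KOH 633 were lower. Upper quartile factors moved the median log2 fold change of all genes from 0.03 to -0.09, with 1461 higher and 1715 lower. A filter on the 6 other libraries, chosen after seeing the data, gave 1567 higher and 1299 lower. No named gene changed sign while called. PHO84, PHO91, PPX1 and SPL2 passed the test or not depending on the setting; for TDH3 the 4 libraries with KOH alone gave -0.82 (adjusted p = 0.10). Small list counts against a list's main direction moved as well when 1 library was left out: Msn2 and Msn4 targets that fell numbered 0 to 2, translation factors that rose 2 to 5, ergosterol genes that rose 0 to 5 and dubious open reading frames that fell 1 to 5. The cause of these changes was not tested. For genes at a log2 fold change of 1 or more, promoter shares moved to 21.9% for GATGAG (24.8% of all falling genes), 8.23% and 7.77% for GGCGGC in rising and falling genes (6.46% and 4.51%), and 9.89% for TGACTC in falling genes (7.94%).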

Other observations

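Other gene groups were counted in the same way, against 28.5% higher and 26.8% lower over all genes. Of amino acid genes, those for arginine and lysine had 3 rises and 7 falls of 18, and those for branched and aromatic amino acids 6 and 14 of 32 (medians -0.15 and -0.28). Amino acid permeases had 5 and 6 of 17. Genes repressed by good nitrogen sources had 8 rises and 2 falls of 24. Potassium and sodium transport had 7 rises and 2 falls of 15, calcium and calcineurin genes 4 and 1 of 14, and zinc and copper genes 3 and 3 of 10. Folding genes of the endoplasmic reticulum gave 6 rises and 4 falls of 20, with 1 fall without CRN replicate 2. Of 17 cyclin and inhibitor genes 2 rose and 6 fell. Transposable elements, which are multicopy and uncertain, gave 3 and 1 of 14. Leaving out 1 library moved the smaller of these counts: arginine and lysine genes that rose numbered 1 without CRN replicate 2, cyclin and inhibitor genes that rose 0 without CRN/PPN2 replicate 1 and 1 without CRN replicate 2, and transposable elements that fell 0 when CRN replicate 1, CRN replicate 2 or CRN/PPN2 replicate 1 was left out and 3 without CRN/PPN2 replicate 2. Calcium genes that fell numbered 2 without CRN replicate 2, potassium and sodium genes that fell 1 without CRN/PPN2 replicate 1, and endoplasmic reticulum genes that fell 2 without CRN replicate 1.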
